A study of Rattus norvegicus with 6 samples.

Results

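The transcripts of 9 genes from the families of Janus kinases (JAK), of the STAT transcription factors that these kinases activate, and of the suppressors of cytokine signalling (SOCS) were examined in rat spinal cord. These were the kinase genes *Jak1*, *Jak2* and *Tyk2*, the transcription factor genes *Stat2*, *Stat3* and *Stat6*, and the inhibitor genes *Socs2*, *Socs3* and *Socs7*. They were chosen by gene symbol as the pathway around *Socs3*, and each symbol matched 1 row, so that they made up 9 of the 22050 genes in the deposited table. RNA-seq was performed on spinal cord tissue of young adult male Sprague–Dawley rats, whose age in weeks is given in the study's methods, and no transgene or drug is named for either group. The 3 rats of the Sham group had sham surgery, and the 3 rats of the SNI-NP group had spared nerve injury, which ties and cuts part of the sciatic nerve and leaves the sural branch intact, as a model of neuropathic pain. The sample labels give neither the spinal segment or side nor the time after surgery, and 1 library was made per sample. Each library is counted here as 1 rat, although whether tissue was pooled was not given in the sources used here.

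JAK kinases sit on the inner side of cytokine receptors. When a cytokine binds, they phosphorylate each other and the receptor, STAT proteins dock there and are phosphorylated, and STAT dimers enter the nucleus and switch on genes. SOCS genes are among the genes that STAT proteins switch on, and SOCS proteins bind kinases and receptors and shut the signal down, which closes a feedback loop. In the spinal cord the pathway is best known from astrocytes and microglia, in which STAT3 takes part in the reaction to injury. Because much of this control acts on phosphorylation, transcript levels give the supply of the components and not their activity.

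No difference between SNI-NP and Sham rats larger than the spread between libraries was found for any of the 9 genes. The log2 fold changes (SNI-NP minus Sham) lay between -0.35 for *Jak2* and 0.27 for *Stat2*, with a median of 0.03 against 0.01 over all 14426 genes tested. At an adjusted p under 0.05 in edgeR's quasi-likelihood test, 0 of the 9 genes and 0.0% of all tested genes were called, the smallest adjusted p of any gene being 0.116. At an unadjusted p under 0.05, 0 of the 9 genes and 1565 of all genes passed, and DESeq2 called 194 genes at an adjusted p under 0.05, none of them among the 9. A looser call, which asks for a fold of 1.2 or more and an unadjusted p under 0.05, took 0 of the 9 genes, in DESeq2 as well, and 10.4% of all tested genes, 4.54% being higher and 5.9% lower in SNI-NP rats. The values of the groups overlapped for each of the 9 genes, and 18.5% of all tested genes had values that did not overlap. In so short a list, neither 0 calls nor 0 genes without overlap set the 9 genes apart from all genes. With 3 rats against 3 the exact two-sided permutation test cannot go below p = 0.1, and p-values describe the spread between these samples only.

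**Figure D1:**
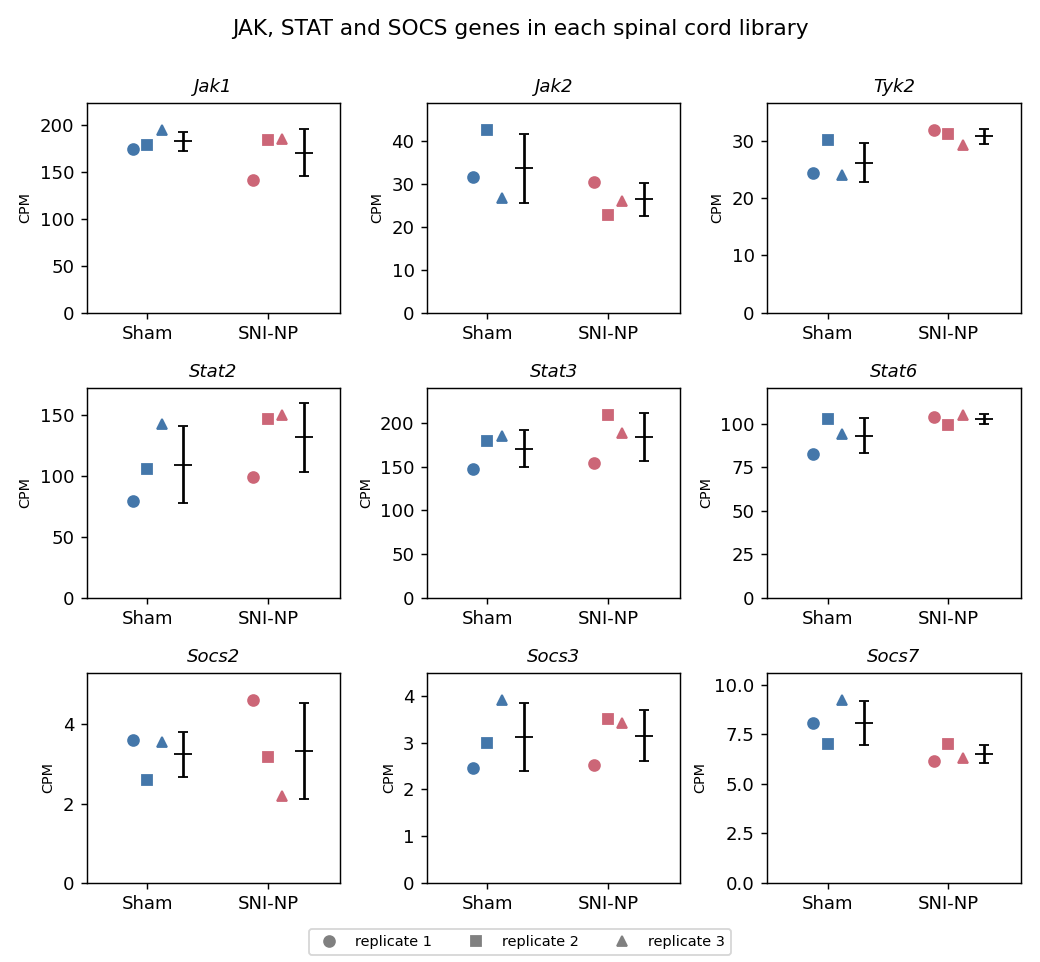
Level of each of the 9 genes in CPM (vertical axis from 0; counts scaled to the size of the library) in the 3 Sham (blue) and 3 SNI-NP (red) libraries, with the mean and SD of each group beside the points. The groups overlap in every panel, and the means of *Socs3* were 3.12 CPM in Sham and 3.15 CPM in SNI-NP rats.

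The libraries held between 16670760 and 18151156 estimated counts. Markers of the tissue were abundant. The 6 oligodendrocyte markers summed to between 30040.1 and 40884 CPM and the 7 astrocyte markers to between 3724 and 5293 CPM. The 8 neuron markers reached 3894 to 5617 CPM in Sham and 1709 to 4051 CPM in SNI-NP rats. Genes that the label spinal cord does not cover were present as well: the 5 markers of peripheral myelin summed to between 74555 and 113971 CPM, and the 9 markers of dorsal root ganglion neurons to between 115 and 1354 CPM, with none at 0. The 6 B cell markers, which were rare, summed to 4.8 to 7.92 CPM in Sham and 11.4 to 14.9 CPM in SNI-NP rats, so that the groups did not overlap, with none at 0. The 5 blood and erythroid markers found summed to 792 to 1851 CPM in Sham and 1705 to 4001 CPM in SNI-NP rats, and the 6 skeletal muscle markers to 14.0 to 75.3 CPM and 11.2 to 434 CPM. The part of these tissues and cells in the results below was not tested. In bulk tissue, fewer cells of a type and less RNA per cell cannot be told apart.

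*Socs3* encodes the inhibitor that binds JAK kinases and the gp130 receptor subunit and is a well-known STAT3 target. It is the gene the study followed downstream of the histone demethylase gene *Jmjd1c*. It was a rare transcript in these libraries, with 41, 53 and 67 counts in the Sham rats and 44, 63 and 59 counts in the SNI-NP rats. On the CPM scale these were 2.46, 2.99 and 3.90 CPM in Sham and 2.53, 3.50 and 3.42 CPM in SNI-NP rats. All 3 SNI-NP values lay within the range of the Sham rats. The log2 fold change was 0.02 (SE 0.28, adjusted p = 0.988, edgeR) and the exact permutation test gave p = 0.9. The 95% interval of the fold change ran from 0.647 to 1.58, and changes within these bounds are not excluded by these 6 libraries. The sign of the difference turned in 6 of 16 alternative settings, in which the log2 fold change lay between -0.14 and 0.18. Counting error alone gives a coefficient of variation of 13.5% at these counts, and the measured variation within groups was 20.4%.

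The length per gene that follows from the deposited counts and FPKM values was 863 bases for *Socs3*, against 1421 for *Socs2*, 1733 for *Socs7* and 4428 for *Stat3*. The study described *Socs3* as down-regulated after nerve injury in its RNA-seq data. Here no difference larger than the spread between libraries was found in the deposited counts. The study also reported lower *Socs3* in injured rats by immunofluorescence and by quantitative PCR, whose values were not analysed here. The primer pair of the quantitative PCR is shown because it defines the stretch of the transcript behind that readout of the same gene.
Socs3 forward primer: tctttaccaccgacggaacc
Socs3 reverse primer: cgacaaagatgctggagggt

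*Socs2*, best known as the brake on growth hormone signalling, was also covered by few reads, with 38 to 80 counts per library. It stood at 3.60, 2.59 and 3.55 CPM in Sham and at 4.60, 3.17 and 2.20 CPM in SNI-NP rats. Both the highest and the lowest of the 6 values were in the SNI-NP group. Its log2 fold change was 0.03 (SE 0.32, adjusted p = 0.977), and its sign turned in 6 of 16 alternative settings, including the one without SNI-NP 1 (-0.27). An uncharacterised long non-coding RNA gene overlaps *Socs2* in the RefSeq annotation of GRCr8, and whether strand was used in counting was not given in the sources used here.

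*Socs7*, which encodes a large SOCS protein that shuttles between cytoplasm and nucleus, was the SOCS gene with the lowest p-value of the 3. It had 8.04, 6.99 and 9.20 CPM in the Sham rats and 6.15, 7.0 and 6.32 CPM in the SNI-NP rats. The lowest Sham value lay just under the highest SNI-NP value, and the groups were otherwise apart. Between the groups the log2 fold change was -0.31 (SE 0.18, adjusted p = 0.538), and it stayed between -0.41 and -0.24 over the 16 alternative settings without passing the looser call in any of them.

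Among the kinase genes, *Jak1*, whose product serves most cytokine receptors including those of the interleukin 6 and interferon groups, had the highest level per length. It had 174, 179 and 194 CPM in Sham and 142, 184 and 185 CPM in SNI-NP rats. The SNI-NP 1 library was the lowest of the 6, and the other 5 lay close together. In edgeR the log2 fold change was -0.10 (SE 0.13, adjusted p = 0.795), and without SNI-NP 1 it was 0.02. In the RefSeq annotation of GRCr8 the neighbouring gene *Raver2* overlaps *Jak1*.

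*Jak2* encodes the kinase of the growth hormone, erythropoietin and gp130 receptors. It had 31.6, 42.5 and 26.7 CPM in Sham and 30.5, 22.7 and 25.9 CPM in SNI-NP rats. The range of the Sham group was set by Sham 2, the highest of the 6 libraries, and 1 SNI-NP rat lay within that range. The log2 fold change was -0.35 (SE 0.20, adjusted p = 0.531), with a 95% interval of the fold change from 0.569 to 1.08. It was -0.14 without Sham 2, and -0.52 without Sham 3, the single setting in which *Jak2* passed the looser call.

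*Tyk2* encodes the kinase that the type I interferon receptor and the receptors of interleukins 12 and 23 share with other JAKs, and had the smallest adjusted p of the 9 genes. It had 24.4, 30.1 and 24.0 CPM in the Sham rats and 31.8, 31.2 and 29.3 CPM in the SNI-NP rats. Sham 2 alone reached into the SNI-NP range. Its log2 fold change was 0.24 (SE 0.13, adjusted p = 0.520). It was 0.35 without Sham 2 and 0.39 with offsets for transcript length, and passed the looser call in both of these settings.

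*Stat3*, the STAT of interleukin 6, leukaemia inhibitory factor and ciliary neurotrophic factor signalling, had 147, 180.2 and 186 CPM in Sham and 155, 209 and 189 CPM in SNI-NP rats. As for *Socs3*, the library numbered 1 was the lowest of each group. Between the groups the log2 fold change was 0.11 (SE 0.15, adjusted p = 0.800), with a 95% interval of the fold change from 0.849 to 1.37.

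*Stat2*, which joins IRF9 in the complex that answers type I interferon, varied more than the other STAT genes of the 9. It had 79.6, 106 and 143 CPM in Sham and 99.4, 147 and 150.0 CPM in SNI-NP rats, the highest library being 1.88 times the lowest. The SNI-NP 1 rat lay within the Sham range and the other SNI-NP rats lay just above the highest Sham rat. In edgeR the log2 fold change was 0.27 (SE 0.24, adjusted p = 0.682), and it fell to 0.08 without Sham 1.

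*Stat6*, the STAT of interleukins 4 and 13, was the steadiest of the 9 genes, with a coefficient of variation of 7.5% within groups. It had 82.8, 103 and 93.9 CPM in the Sham rats and 104, 99.2 and 105 CPM in the SNI-NP rats. The log2 fold change was 0.14 (SE 0.11, adjusted p = 0.629). Its deposited counts were not whole in any of the 6 libraries and became whole when those of *Nab2* were added, so that the division of reads between *Stat6* and *Nab2* is uncertain.

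**Figure D2:**
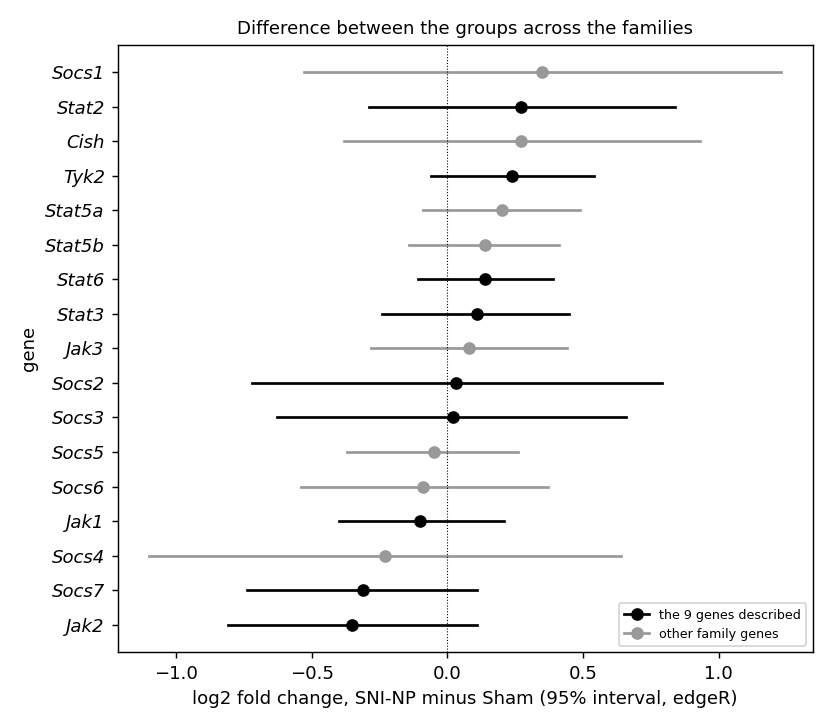
Log2 fold change (SNI-NP minus Sham, horizontal axis) with its 95% interval from edgeR for the 9 genes described (black) and 8 other genes of the same families (grey). Every interval includes 0, and the intervals of *Socs1* and *Socs4* are the widest.

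Levels of different genes were compared per length, on the deposited FPKM scale over all 6 libraries. *Jak1* (41.2 ± 4.93, SD, n = 6), *Stat3* (40.2 ± 5.69), *Stat2* (33.1 ± 8.21) and *Stat6* (31.9 ± 2.82) formed an upper group. The ranges of mean ± SD of neighbours in that order overlapped, although *Stat3* exceeded *Stat2* in 6 of 6 libraries. *Jak2* (6.27 ± 1.58), *Tyk2* (5.62 ± 0.669), *Socs7* (4.21 ± 0.704), *Socs3* (3.64 ± 0.694) and *Socs2* (2.30 ± 0.546) followed. The gap between *Stat6* and *Jak2* was wider than the SDs and was present in 6 of 6 libraries. *Jak2* and *Tyk2* did not differ beyond their spread, nor did *Socs7* and *Socs3*. *Socs3* exceeded *Socs2* in 5 of 6 libraries. In the rat spinal cord libraries the 3 inhibitors were therefore the least abundant of the 9 genes per length.

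**Figure D3:**
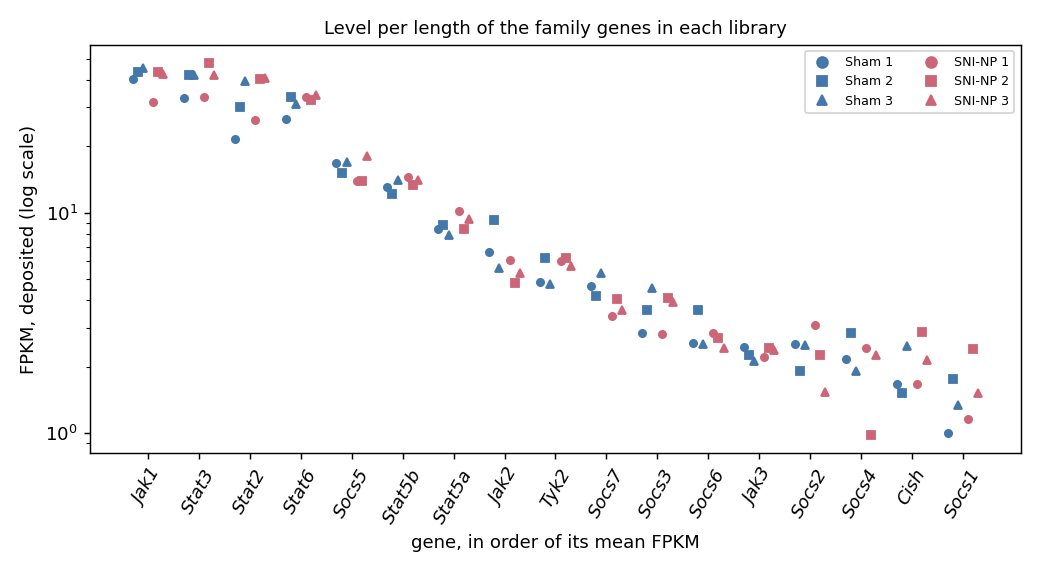
Deposited FPKM (logarithmic vertical axis) of 17 JAK, STAT and SOCS family genes in each of the 6 libraries, in order of their mean. *Jak1*, *Stat3*, *Stat2* and *Stat6* stand above the other genes, and *Socs1*, with a mean of 1.53, is the lowest.

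Of 9 further genes of the families, 8 were found by symbol and tested, and 0 passed the looser call, against 10.4% of all tested genes. *Stat4* was not analysed here. The list had a median log2 fold change of 0.11. The groups overlapped for each of the 8 genes, and 18.5% of all tested genes had values that did not overlap. For so few genes, neither of these sets the list apart from all genes. The smallest adjusted p-values were those of *Stat5a* and *Stat5b*, the paired STAT genes of growth hormone and prolactin signalling. *Stat5a* had 30.6, 30.4 and 28.3 CPM in Sham and 38.4, 30.0 and 34.2 CPM in SNI-NP rats (log2 fold change 0.20, SE 0.12, adjusted p = 0.561), and passed the looser call with length offsets (0.29). *Stat5b* had 34.8, 31.3 and 37.3 CPM in Sham and 40.5, 35.1 and 37.9 CPM in SNI-NP rats (log2 fold change 0.14, SE 0.12, adjusted p = 0.669). These near-identical neighbours had counts that were not whole, while their sums were whole in each library, at 1090, 1094 and 1127 in Sham and 1373, 1173 and 1243 in SNI-NP rats.

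Most cytokine genes that drive the pathway had few reads. Of 19 ligand genes, 6 had enough counts to be tested and 0 were called, against 10.4% of all tested genes. *Il6*, which encodes interleukin 6, had 2, 3 and 2 counts in Sham and 1, 6 and 3 counts in SNI-NP rats. It was thus detected in each library, but with too few counts to be tested. *Il4*, *Il13*, *Csf2*, *Epo*, *Prl* and *Ifnb1* had 0 counts in all 6 libraries, which allows a level of up to 0.165 to 0.18 CPM each, for counting error only. *Cntf*, which encodes ciliary neurotrophic factor, a product of Schwann cells and astrocytes, was well covered, with 3201 to 5109 counts per library. *Ctf1*, which encodes the related ligand cardiotrophin 1, had 6.0, 8.17 and 5.01 CPM in Sham and 7.53, 11 and 9.97 CPM in SNI-NP rats. Its log2 fold change was 0.57 (SE 0.24, adjusted p = 0.460), and it passed the looser call with no filter on low counts or a stricter one (0.57 each), without Sham 2 (0.79) and without SNI-NP 1 (0.71). *Osm*, which encodes oncostatin M, had 7 to 16 counts in Sham and 15 to 20 counts in SNI-NP rats (log2 fold change 0.51, SE 0.42, adjusted p = 0.657).

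Of 21 receptor genes, 19 were tested and 1 passed the looser call, 5.26% against 10.4% of all tested genes. This gene was *Lifr*, which encodes the receptor chain that pairs with gp130 for leukaemia inhibitory factor, ciliary neurotrophic factor and cardiotrophin 1. It had 79.4, 95.6 and 84.5 CPM in the Sham rats and 54.8, 56.0 and 68.6 CPM in the SNI-NP rats. Each SNI-NP rat lay below each Sham rat. Its log2 fold change was -0.53 (SE 0.13, adjusted p = 0.336, DESeq2 adjusted p = 0.0559), with values from -0.68 to -0.45 over the fits that each lack 1 library. With offsets for transcript length it was smaller, at -0.36, and at -0.37 with the replicate block as well, and *Lifr* still passed the looser call in both. *Il6st*, which encodes gp130 itself, had mean levels of 147 CPM in Sham and 149 CPM in SNI-NP rats (log2 fold change 0.02, SE 0.12, adjusted p = 0.955).

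Of 13 other inhibitors of the pathway, 12 were tested, and 2 were called higher and 0 lower, 16.7% against 10.4% of all tested genes. In so short a list, 2 calls do not set it apart from all genes. *Pias3*, which encodes a protein that binds activated STAT3 and blocks it on DNA, had 32.7, 34.6 and 32.2 CPM in Sham and 46.1, 41.6 and 42.6 CPM in SNI-NP rats. The groups did not overlap. Between the groups the log2 fold change was 0.39 (SE 0.10, adjusted p = 0.348), and 0.31 without both libraries numbered 1, where the call was lost. *Sh2b3*, which encodes the adaptor LNK that restrains JAK2, had 42.6, 48.8 and 42.5 CPM in Sham and 59.2, 48.4 and 61.0 CPM in SNI-NP rats (log2 fold change 0.33, SE 0.13, adjusted p = 0.439). SNI-NP 2 lay within the Sham range, and the call was lost when Sham 1, Sham 3, SNI-NP 1 or SNI-NP 3 was left out (log2 fold change 0.23 to 0.29), and without both libraries numbered 1 (0.24).

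SOCS proteins join a ubiquitin ligase with elongins and cullin 5, which marks bound proteins for breakdown. Of the 4 ligase genes tested, 1 was called lower, 25.0% against 10.4% of all tested genes. In a list of 4 genes, 1 call does not set it apart from all genes. *Cul5*, which encodes cullin 5, had 13.4, 12.1 and 13.3 CPM in Sham and 10.6, 3.0 and 5.22 CPM in SNI-NP rats. The Sham libraries were close together, while the SNI-NP libraries differed among themselves by more than 3 times. In edgeR the log2 fold change was -1.04 (SE 0.41, adjusted p = 0.445), and the call was lost when any library except SNI-NP 1 was left out (-1.09 to -0.70). Without SNI-NP 1 it was -1.65 (adjusted p = 0.0395, edgeR), which passed the stricter threshold, and without both libraries numbered 1 it was -1.65 (adjusted p = 0.0783). *Eloc* and *Elob*, which encode elongins C and B, had log2 fold changes of -0.35 and 0.06 (adjusted p = 0.466 and 0.871). Over the 78 listed genes tested that are not among the 9, 2 were called higher and 2 lower, 5.13% in all, which is below the 10.4% of all tested genes.

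Of 20 listed genes known to respond to STAT3, 16 were tested and 0 passed the looser call, against 10.4% of all tested genes. In so short a list, 0 calls do not set it apart from all genes. Its median log2 fold change was 0.10. *A2m*, which encodes the acute-phase protease inhibitor alpha-2-macroglobulin, had 314, 369.9 and 306 CPM in Sham and 686, 312 and 479 CPM in SNI-NP rats. The SNI-NP group was spread over 2 times, and its lowest rat lay within the Sham range (log2 fold change 0.58, SE 0.26, adjusted p = 0.478). It passed the looser call in DESeq2 (0.56), with length offsets (0.68) and without SNI-NP 2 (0.82). *Vim*, which encodes the intermediate filament vimentin, had 1820.1, 2447 and 1909 CPM in Sham and 2803, 2426 and 2350.0 CPM in SNI-NP rats (log2 fold change 0.30, SE 0.15, adjusted p = 0.504), and passed the looser call without Sham 2 (0.44). Of 10 listed STAT6 target genes, 3 were tested and 0 were called, against 10.4% of all tested genes. *Il4r*, the interleukin 4 receptor gene, had a log2 fold change of 0.19 (SE 0.12, adjusted p = 0.569). *Mrc1*, a macrophage gene, had one of -0.10 (SE 0.32, adjusted p = 0.924), whose sign turned without Sham 2 (0.28) and without SNI-NP 2 (0.09).

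Interferon-responsive genes varied widely between libraries of the same group. The 12 partner and target genes of STAT2 were all tested, and 0 passed the looser call, against 10.4% of all tested genes. The median log2 fold change was 0.07. *Irf7*, which encodes the transcription factor that amplifies the interferon response, had 22.6, 117 and 240.0 CPM in Sham and 30.5, 159.8 and 185 CPM in SNI-NP rats. The highest library was 10.6 times the lowest, against a median of 1.57 times over all tested genes, while the group means were 126 and 125 CPM. Averaged over the 12 genes, log2 CPM centred on the 6 libraries was -1.4, 0.0 and 1.16 in Sham and -1.0, 0.64 and 0.60 in SNI-NP rats. For 11 of the 12 genes the lowest pair of libraries was Sham 1 and SNI-NP 1, the exception being *Ifit2*, whose lowest library was SNI-NP 2. This pair was the lowest for 8.17% of all tested genes.

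The same pair was the lowest for 4 of the 9 genes, which were *Stat2*, *Stat3*, *Socs3* and *Jak1*, and for *Socs1* among the other family genes. Within groups the centred log2 CPM of *Stat2* ran from -0.56 to 0.28 in Sham and from -0.24 to 0.35 in SNI-NP rats. For *Socs3* it ran from -0.31 to 0.32 and from -0.28 to 0.17. For *Jak1* it was -0.31 in SNI-NP 1 but -0.01 in Sham 1, which was near the mean of the 6 libraries. *Tyk2*, *Stat6*, *Jak2*, *Socs2* and *Socs7* did not have Sham 1 and SNI-NP 1 as their lowest pair. The smallest p-values among the 12 genes were those of *Ifit2* (log2 fold change -1.11, SE 0.48, adjusted p = 0.463) and *Rsad2* (0.58, SE 0.53, adjusted p = 0.692). *Ifit2* passed the looser call in DESeq2 (-1.12), with no filter on low counts (-1.11), without Sham 1 (-1.49) and without both libraries numbered 1 (-1.45), and stood at -0.44 without Sham 3.

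Some other measures also set Sham 1 and SNI-NP 1 apart from the rest, and some did not. Total count did not group them, Sham 1 having the smallest and SNI-NP 1 the largest. The summed markers of dorsal root ganglion neurons were 501 CPM in Sham 1 and 115 CPM in SNI-NP 1, against 935.5 to 1354 CPM in the other 4 libraries, with 9 of 9 markers found. The summed oligodendrocyte markers were 40884 and 40088 CPM in these libraries, against 30040.1 to 33853 CPM in the others. The summed microglia markers did not set them apart, Sham 1 having the lowest sum and SNI-NP 1 the second highest (302 CPM, against up to 337 CPM in Sham 2). The sums for granulocyte precursors, B cells and fibroblasts were lowest in Sham 1 and highest in SNI-NP 1. Neuron markers were lowest in SNI-NP 1 and second highest in Sham 1. By contrast, motor neuron sums were lowest and astrocyte sums highest in this pair. The part of any of these in the interferon-responsive genes was not tested. Without both libraries numbered 1, the log2 fold change of *Socs3* was -0.01 and that of *Stat2* was 0.24, and 0 of the 9 genes passed the looser call.

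**Figure D4:**
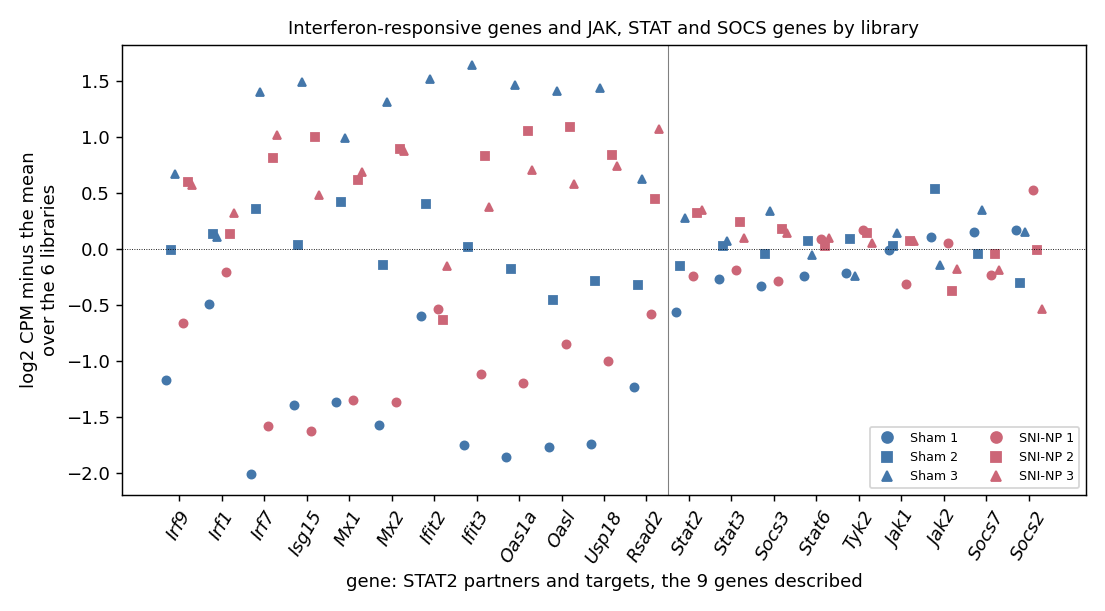
Log2 CPM minus its mean over the 6 libraries (vertical axis) for 12 STAT2 partner and target genes and for the 9 genes described, with Sham libraries in blue and SNI-NP libraries in red. The circles, which stand for Sham 1 and SNI-NP 1, lie at the bottom for 11 of the 12 interferon-responsive genes and for *Stat2*, *Stat3*, *Socs3* and *Jak1*. For *Jak1* the circle of Sham 1 lies near the mean.

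The interferon-stimulated response element, to which the STAT2 complex binds, and the sites of STAT dimers were looked up in RefSeq promoter windows of GRCr8, a later build than the authors' Rat6, from 250 bases before to 50 bases after each gene start. The letters GAAANNGAAA, searched on both strands, were found in 3.92% of 33469 promoters. Of the 8 STAT2 partner and target genes in the table, 4 held them, and of the 5 genes of the 9 that are in the table (*Jak2*, *Stat2*, *Stat3*, *Stat6* and *Socs3*), 0 did. Among the 7 other family genes in the table, *Socs1* held them. TTCNNNGAA, which reads the same on both strands, was found in 8.87% of all promoters, and TTCNNNNGAA in 7.28%. Of the 5 genes 0 held either, which for so few genes is near these shares. Of 16 STAT3 target genes with a promoter window, 3 held TTCNNNGAA and 2 held TTCNNNNGAA. For the 8 STAT2 partner and target genes these were 3 and 1, and for the 7 other family genes 2 and 0. Sites outside the windows were not searched. These matches are descriptions of letters, not of bound sites. The stretches of the 4 genes are shown because the genes with the widest spread between libraries are among them, with the matched letters in capitals, 5′ to 3′ on the strand of the gene. *Irf7* lies on the minus strand at chr1:205800073-205800102, *Ifit3* on the plus strand at chr1:241527272-241527301, *Rsad2* on the minus strand at chr6:48788248-48788277 and *Oas1a* on the plus strand at chr12:41330415-41330444. In *Oas1a* 2 matches overlap, and the capitals cover both.
Irf7: acagtttaggTTTCATTTTCccgagacgca
Ifit3: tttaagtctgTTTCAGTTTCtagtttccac
Rsad2: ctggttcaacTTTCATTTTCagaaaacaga
Oas1a: cccctctcggGAAATGGAAACTGAAAatct
*Ifit3*, which encodes an antiviral adaptor protein, had 47, 170 and 509 counts in Sham and 76, 305 and 212 counts in SNI-NP rats. *Rsad2*, which encodes the antiviral enzyme viperin, had 125, 250 and 467 counts in Sham and 205, 432 and 642 counts in SNI-NP rats. In both genes the libraries numbered 1 were the lowest of their groups.

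Because the inhibitor and its targets act on each other, the balance between genes was compared within libraries as the difference of log2 CPM, for 5 pairs. *Socs3* minus *Stat3* was -5.84, -5.86 and -5.53 in Sham and -5.87, -5.86 and -5.74 in SNI-NP rats, a difference of -0.08 between the groups (exact permutation test, p = 0.6, adjusted p = 0.75 over 5 pairs). The values of 5 of the 6 libraries lay close together, with Sham 3 above them. *Socs3* minus *Jak2* was -3.62, -3.78 and -2.74 in Sham and -3.53, -2.66 and -2.88 in SNI-NP rats (difference 0.36, exact p = 0.4, adjusted p = 0.667). *Stat3* minus *Jak2* was 2.21, 2.08 and 2.79 in Sham and 2.34, 3.20 and 2.87 in SNI-NP rats (difference 0.44, exact p = 0.2, adjusted p = 0.5). *Socs2* minus *Socs3* differed by -0.04 between the groups (exact p = 0.9, adjusted p = 0.9), with values from -0.61 to 0.83 inside the SNI-NP group.

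*Jmjd1c*, which encodes a histone H3K9 demethylase and which the study placed upstream of *Socs3*, had 43.0, 46.9 and 40.3 CPM in Sham and 38.1, 16.7 and 26.1 CPM in SNI-NP rats. Each SNI-NP rat lay below each Sham rat. The log2 fold change was -0.69 (SE 0.27, adjusted p = 0.444, edgeR), and the looser call was lost without Sham 1, Sham 2, SNI-NP 2 or SNI-NP 3 (-0.72 to -0.43). It was -1.02 without SNI-NP 1 (adjusted p = 0.0723) and -1.05 without both libraries numbered 1 (adjusted p = 0.130). *Socs3* minus *Jmjd1c* was -4.06, -3.92 and -3.33 in Sham and -3.85, -2.22 and -2.89 in SNI-NP rats, a difference of 0.79 (exact p = 0.2, adjusted p = 0.5). The 2 SNI-NP libraries with the least *Jmjd1c*, SNI-NP 2 and SNI-NP 3, had more *Socs3* (3.50 and 3.42 CPM) than SNI-NP 1 (2.53 CPM). *Socs3* was as low in Sham 1 (2.46 CPM), where *Jmjd1c* was 43.0 CPM. These are single libraries with few *Socs3* counts, and a link between these genes was not tested here. The study proposed the link from other experiments, in which raising or silencing *Jmjd1c* in rats moved *Socs3* transcript and protein in the same direction. It also reported chromatin immunoprecipitation at the *Socs3* promoter and rescue of pain behaviour through *Socs3*. The data of those experiments were not analysed here.

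The genes whose pattern over the 6 libraries was most like that of *Socs3* were named by the root mean square difference of centred log2 CPM. Among 14425 genes the nearest were *Mad2l1bp* (0.049), *Pced1b* (0.051), *Ap1g2* (0.054), *Selenom* (0.062) and *Glrx* (0.067), while the median gene was at 0.325 and a gene with no variation would be at 0.236. Of the other 8 genes, *Stat3* was the nearest (0.120), with 0.423% of all genes nearer than it, followed by *Stat2* (0.153) and *Jak1* (0.156). *Jak2* (0.455) and *Socs2* (0.484) were farther from *Socs3* than most genes, and *Jmjd1c* (0.655) was farther than 89.1% of them. The distance is not scaled for variation, so that a gene that varies much more than *Socs3* lies far from it whatever its pattern. Counting error of *Socs3*, with a coefficient of variation of 13.5%, enters every distance. The 6 libraries share their depth and tissue composition across genes, and these distances are descriptions of 6 points.

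**Figure D5:**
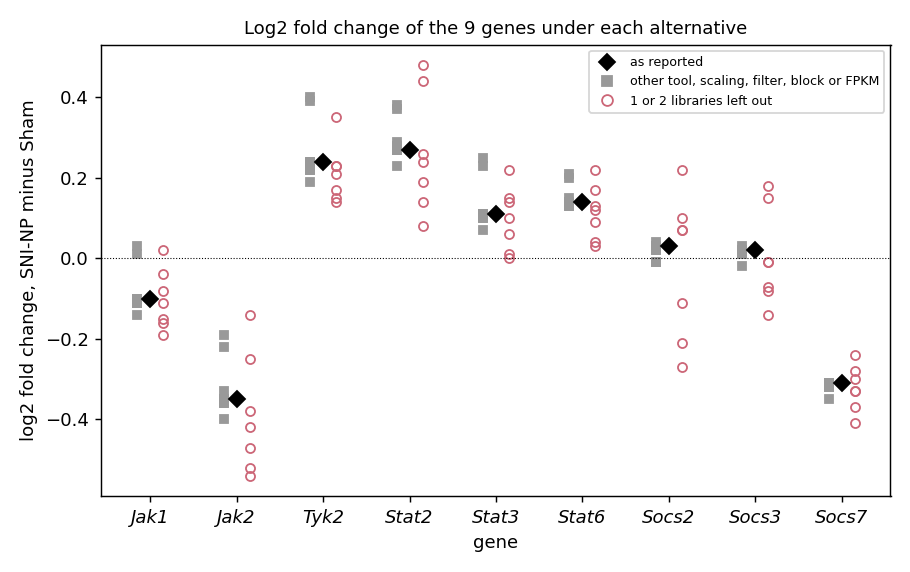
Log2 fold change (SNI-NP minus Sham, vertical axis) of the 9 genes as reported (black diamonds), with another tool, scaling, filter, block or FPKM (grey squares) and with 1 or 2 libraries left out (open red circles). *Socs7* and *Jak2* stayed below 0 and *Tyk2*, *Stat2* and *Stat6* above it, while *Socs2* and *Socs3* fell on both sides.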

How the data were processed

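RNA-seq of 3 Sham and 3 SNI-NP spinal cord samples was analysed. Per the methods, total RNA was extracted with TRIzol, reads were mapped to Rat6 and unique sequences were kept. The submitters' processing notes name FastQC, STAR and HTSeq. The annotation release and use of strand were not given in the sources used here. The authors deposited an estimated count per gene without normalization, and an FPKM value. FPKM was used for levels between genes and 1 alternative. Counts were rounded, filtered by filterByExpr, scaled by TMM and compared with edgeR version 4.0.16 (R version 4.3.3, quasi-likelihood test, group as the single term, Benjamini-Hochberg adjustment over 14426 genes). CPM are counts scaled with TMM factors, and log2 CPM used a prior count of 2. The study's methods name DESeq2, which was run (version 1.42.0) as an alternative. Within-library differences were tested by exact two-sided permutation (scipy).

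The members and all gene and marker lists were chosen with earlier results of these data known. The text names the 9 genes, in each other list the genes passing the looser call or else the 2 with the smallest p, the 5 genes most like *Socs3*, and *Jmjd1c*; *Socs1*, *Nab2*, *Raver2*, *Il6st*, *Il6*, *Cntf*, *Eloc*, *Elob*, *Irf7*, *Ifit3* and *Oas1a* and the ligands at 0 were added after their values were seen. The looser call asks for a fold of 1.2 or more together with an unadjusted p under 0.05. Alternatives were RLE and upper-quartile factors, other filters on low counts, offsets from a loess curve on transcript length (span 0.5), a block for the replicate number, FPKM ratios, and leaving out each library. Leaving out both libraries numbered 1 was chosen after seeing the data. Intervals are 95%, and a count of 0 was taken to allow 3 counts. The tests were checked on simulated counts. Some genes are not reported here.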

Additional observations from a re-analysis of the deposited data

How the results depend on the processing

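Over 16 alternative settings, *Jak2*, *Tyk2*, *Stat2*, *Stat6* and *Socs7* kept the direction of their difference. The direction turned for *Jak1* with offsets for transcript length (0.03, and 0.01 with the replicate block as well), for *Socs2* with the replicate block, with length offsets and the block, and for the ratio of mean FPKM (-0.01 each), and for *Socs3* in the ratio of mean FPKM (-0.02). Without both libraries numbered 1, *Socs2* was at -0.21 and *Socs3* at -0.01. *Mrc1* turned with length offsets (0.03) and with length offsets and the block (0.11). With any 1 library left out, the log2 fold change ranged from -0.19 to 0.02 for *Jak1*, from -0.00 to 0.22 for *Stat3*, from -0.27 to 0.22 for *Socs2*, from -0.14 to 0.18 for *Socs3* and from -0.38 to 0.28 for *Mrc1*, the difference of *Socs3* minus *Stat3* from -0.14 to 0.03 and that of *Socs2* minus *Socs3* from -0.44 to 0.28. The cause of these turns was not tested beyond the samples left out.

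The count of the 9 genes past the looser call was 1 with length offsets (*Tyk2*), 2 with length offsets and the replicate block (*Tyk2* and *Stat2*, at 0.40 and 0.38), and 0 to 1 when each library was left out (1 without Sham 2, *Tyk2*, and 1 without Sham 3, *Jak2*). The count of all genes with an adjusted p under 0.05 was 194 in DESeq2, 117 without both libraries numbered 1, and 0 to 222 when each library was left out, the 222 being without SNI-NP 1. The count of other listed genes called was 7 in DESeq2, 7 with no filter on low counts, 7 with the replicate block, 8 with length offsets and the block, and 2 to 8 when each library was left out (8 without Sham 2, 2 without Sham 3 or SNI-NP 3). The looser call took 1506 genes, 43.5% of them higher in SNI-NP, and with length offsets 1865 genes, 62.5% of them higher. The share higher was 16.2% without both libraries numbered 1, 27.2% without SNI-NP 1, 33.5% without SNI-NP 3 and 54.2% without SNI-NP 2. The looser call took 908 genes without Sham 1 and 917 without SNI-NP 3.

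The labels do not say whether libraries with the same replicate number were paired, and the main fit did not pair them. The correlations of their deviations from the group means were 0.214, -0.143 and 0.054 for numbers 1, 2 and 3. Sham 1 correlated best with SNI-NP 1, while Sham 2 and Sham 3 each correlated best with another number. Correlations among so few libraries cannot decide whether samples were paired. With the replicate block the looser call took 1319 genes in all and 0 of the 9, and *Socs3* had a log2 fold change of 0.03. Under the block *Sh2b3* lost the looser call (0.33), while *Ctf1* (0.58), *Ifit2* (-0.90) and *Rsad2* (0.62) passed it. Of 19 ligand genes, 13 had too few counts to be tested.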
